A study of Mus musculus with 12 samples.

Results

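The cytosolic ribosomal protein genes were examined in mouse pancreatic cells. A gene was a member if its platform symbol was Rpl or Rps followed by a digit, with a suffix a, l or x allowed and pseudogenes and Rps6k kinases left out, or was Rplp0, Rplp1, Rplp2 or Rpsa. By this rule 64 of the 22180 genes with a probe set of their own were members, 40 of the large and 24 of the small ribosomal subunit. Expression had been measured on 12 Affymetrix arrays, 3 in each of 4 groups. Acinar-to-ductal metaplasia (ADM) cultures, in which enzyme-secreting acinar cells take on duct-like features, had been kept for 7 days in 3D collagen with TGF-alpha at 50 ng/ml, which binds the EGF receptor. The pancreatic tumor cells were a low-passage culture in standard medium, and the labels do not say whether the 3 arrays hold 1 line. Embryonic acinar cells and adult acinar cells had been isolated by digestion and taken for RNA without culture. The strain label was C57Bl6/J wildtype for all 4 groups, and the labels give no age, no genotype of the tumors and no statement that replicates came from separate animals or cultures. All p-values therefore measure only the spread between arrays, which may be technical.

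Each cytosolic ribosome holds a small subunit, which reads the messenger RNA, and a large subunit, which joins the amino acids. Its proteins are made in matched amounts and are assembled with ribosomal RNA in the nucleolus. Most of their messenger RNAs start with a run of pyrimidines, the TOP motif, through which mTORC1 and the RNA-binding protein Larp1 set their translation and stability. Adult acinar cells are among the most active protein-making cells of the body. A few subunits also have paralogs used mainly in certain tissues, such as Rpl3l in muscle and Rpl10l and Rpl39l in testis.

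Promoters in the RefSeq tables (build GRCm38.p6) were found for 49 members, with 58 entries in all, and 15 members had no entry, Rps4l, Rpl3, Rplp1 and Rpl32 among them. The windows below run 5′ to 3′ on the gene's strand, from 40 bases before the annotated start to 20 bases from it on. They show Rpl28, Rpl15, Rpl41 and Rps4x, which were called different in no pair of groups by the test defined below. They also show members called lower in 1 or more groups (Rps6, Rpl38, Rps28 and Rps13) and the testis paralogs Rpl39l and Rpl10l. Capitals mark the letters CTTTC from 20 bases before the start to 10 bases from it on, and CTTCCG anywhere, each on either strand.
Rpl28: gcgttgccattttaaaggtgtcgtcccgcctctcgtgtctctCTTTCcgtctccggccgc
Rpl15: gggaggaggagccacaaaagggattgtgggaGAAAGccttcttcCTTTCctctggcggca
Rpl41: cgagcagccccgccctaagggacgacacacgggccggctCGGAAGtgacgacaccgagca
Rps4x: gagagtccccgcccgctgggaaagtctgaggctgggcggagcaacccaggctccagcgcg
Rps6: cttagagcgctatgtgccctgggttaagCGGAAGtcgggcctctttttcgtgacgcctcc
Rpl38: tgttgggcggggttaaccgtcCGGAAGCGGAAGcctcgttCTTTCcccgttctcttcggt
Rps28: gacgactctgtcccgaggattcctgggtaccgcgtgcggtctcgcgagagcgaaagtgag
Rps13: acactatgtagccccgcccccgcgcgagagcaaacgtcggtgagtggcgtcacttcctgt
Rpl39l: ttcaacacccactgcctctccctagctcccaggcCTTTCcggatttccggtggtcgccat
Rpl10l: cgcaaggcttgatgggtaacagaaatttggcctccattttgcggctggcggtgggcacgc

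The windows lie at chr7:4792925-4792984 (+) for Rpl28, chr14:18270967-18271026 (-) for Rpl15, chr10:128549149-128549208 (-) for Rpl41, chrX:102189372-102189431 (-) for Rps4x and chr4:86857348-86857407 (-) for Rps6. They lie at chr11:114668540-114668599 (+) for Rpl38, chr17:33824543-33824602 (-) for Rps28, chr7:116334171-116334230 (-) for Rps13, chr16:10170188-10170247 (+) for Rpl39l and chr12:66284382-66284441 (-) for Rpl10l. The letters CTTTC on the gene's strand stood in the 30 bases around the start in 20.7% of the 58 member entries and in 4.20% of all 32851 entries. On either strand they stood in 20.7% of member entries and 7.56% of all entries. CTTCCG, the core letters that ETS factors bind, stood on either strand of the 300 bases in 58.6% of member entries and 16.9% of all entries. AAGATGGC, letters bound by YY1, stood there in 3.45% of member entries and 2.75% of all entries. These shares describe the letters of the promoters only. Printed windows with and without capitals occurred both among members called in no pair and among those called lower in a group.

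The values were deposited log2 signals with 2 decimals, and their range of 1.56 to 13.67 is the basis for reading them as log2. Signals of different probe sets depend on the probes and are not levels that can be set against each other. A background level of 3.62 was set at the 95th percentile over 1390 genes of olfactory and vomeronasal receptors, using their group means. Of the 64 members, 41 had a mean over 6 on the 12 arrays and 23 lay under 6, and 4 lay at or below background in every group. All 9 measured acinar markers were above background in ADM, embryonic and adult arrays. On tumor arrays 5 were above background, and Prss2, Amy2b, Cel and Ptf1a were at background. Of 8 measured ductal markers, all were above background in ADM arrays, 6 in tumor arrays and 7 each in embryonic and adult arrays. Cldn4 and Cftr were at background on tumor arrays, and Cftr on embryonic and adult arrays. Summed ductal signals were 12.62 to 12.99 on ADM arrays and 11.97 to 12.17 on tumor arrays. They were 10.15 to 10.43 on embryonic arrays and 9.29 to 9.40 on adult arrays. These markers alone do not establish the ADM or tumor labels. Summed acinar signals were 14.0 to 14.3 on ADM arrays, 6.95 to 7.30 on tumor arrays, 15.0 to 15.2 on embryonic arrays and 15.5 on adult arrays. Embryonic arrays had the highest summed signals of endothelial markers (10.92 to 11.01 on the log2 scale, against 8.68 to 8.92 on adult arrays) and endocrine markers (12.8 to 13.1, against 10.7 to 11.2). Their part in the results below was not tested. In preparations of mixed cells, fewer cells of a type and less RNA per cell cannot be told apart. Tumor replicate 2 was the highest of the 12 arrays for 27 of the 64 members. The matching share of all genes is not given here. Values that move by over 1.5 times, and calls that are lost, without tumor replicate 2 are named below.

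**Figure D1:**
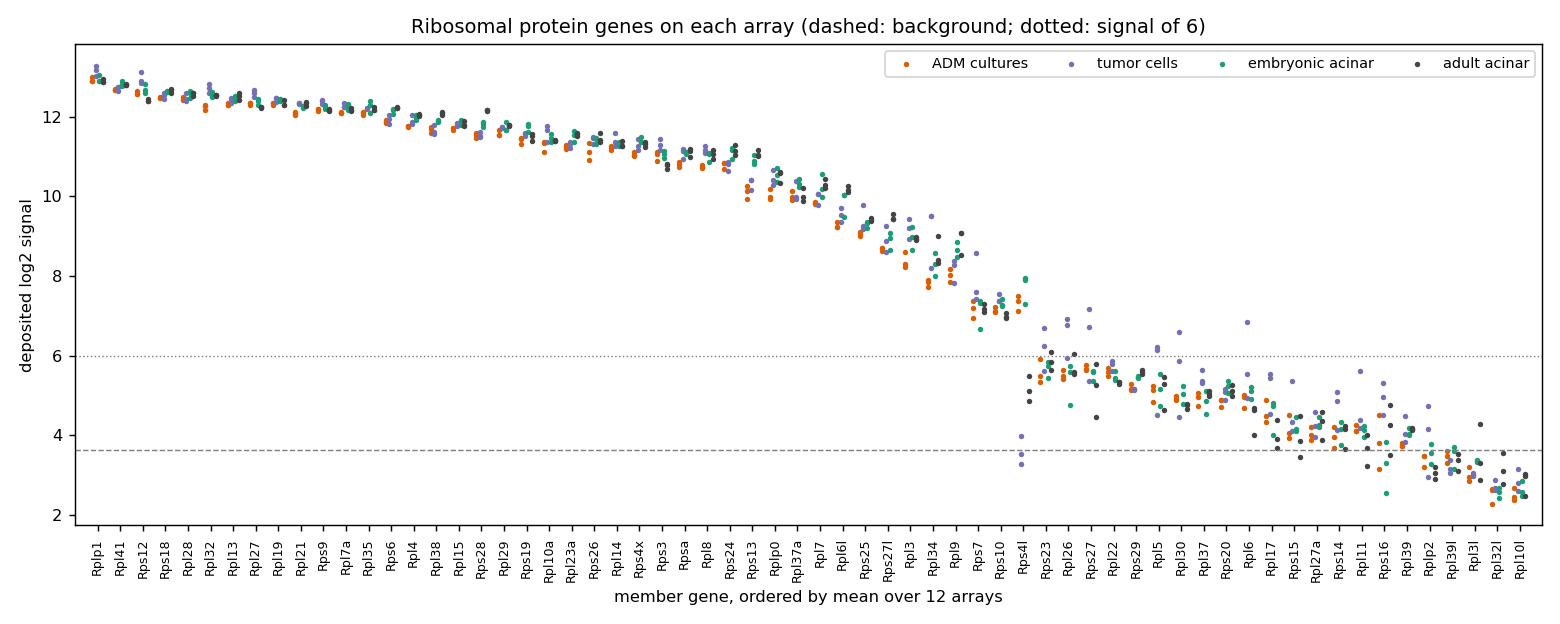
Deposited log2 signal (y axis) of each of the 64 members (x axis, ordered by the mean over 12 arrays), with 1 point per array coloured by group. The 41 members over the dotted line at 6 have closely packed points except in a few genes, Rps4l spans from background in tumor cells to nearly 8 in embryonic cells, and 23 members lie under 6.

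The members with a signal over 6 stayed within a narrow band in all 4 groups. The range of the 4 group means had a median of 0.35 on the log2 scale over these 41 members, against 1.09 over the 5525 genes with a mean over 6. It was under 0.5 in 30 of the 41 members (73.2%) and in 14.0% of the 5525 genes. These sets were not matched for brightness, as 28 of the 100 brightest genes were members. The part of brightness in this difference was not tested. In all, 34 of the 64 members were called in none of the 6 pairs of groups. The matching share of all 22180 genes is not given here. The count of 34 therefore does not show whether members were called less often than other genes. A call means an adjusted p under 0.05 in limma's test, with Benjamini-Hochberg adjustment over all 22180 genes and no minimum fold.

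Rpl28, a protein of the large subunit, was among the steadiest members. It had signals of 12.41, 12.50 and 12.44 in ADM cultures, 12.58, 12.45 and 12.40 in tumor cells, 12.65, 12.60 and 12.47 in embryonic acinar cells and 12.60, 12.51 and 12.58 in adult acinar cells. Its arrays overlapped between tumor, embryonic and adult cells, and those of ADM cultures lay just below the adult ones. The 95% confidence interval of its difference from adult cells was -0.39 to 0.16 in ADM cultures, -0.36 to 0.19 in tumor cells and -0.26 to 0.28 in embryonic cells. Rpl19, Rpl41 and Rpl15, also of the large subunit, were the others with the narrowest ranges of group means. Rpl19 had the narrowest, with group means from 12.32 in ADM cultures to 12.43 in tumor and embryonic cells. For Rpl15 the intervals were -0.38 to 0.15 in ADM cultures, -0.28 to 0.25 in tumor cells and -0.22 to 0.32 in embryonic cells.

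The summed linear signal of the 64 members was a slightly different share of the summed signal of all genes in the 4 groups. The share was 4.97% ± 0.086 in ADM cultures, 5.53% ± 0.19 in tumor cells, 5.67% ± 0.25 in embryonic cells and 5.86% ± 0.071 in adult cells (SD, n = 3 each). The 3 ADM arrays, at 4.91% to 5.07%, lay below all 9 others. ADM cultures also had the lowest group mean for 32 of the 41 members over 6, and the highest for none of the 64. Tumor cells had the highest group mean for 16 of the 41, embryonic cells for 8 and adult cells for 17. The matching shares of all genes are not given here. These counts of lowest and highest groups therefore do not show whether members differ from other genes.

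Of the members, 2 had a range of group means over 1.5. These were Rps16, a dim member described below, and Rps4l, which had the widest range. Rps4l is named for its likeness to Rps4x, the X-linked gene of a small subunit protein. Rps4l had signals of 7.37, 7.12 and 7.51 in ADM cultures, 3.98, 3.54 and 3.28 in tumor cells, 7.96, 7.90 and 7.29 in embryonic acinar cells and 5.48, 5.12 and 4.86 in adult acinar cells. ADM and embryonic arrays were high and overlapped, adult arrays lay between, and tumor arrays were at or near background, with no overlap between these 3 levels.

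Rps4l rose by 2.18 ± 0.23 (SE, n = 3 arrays a group) in ADM cultures against adult cells, or 4.53-fold (limma adjusted p = 9.5e-06). It rose by 2.56 ± 0.23 in embryonic cells against adult cells, or 5.91-fold (limma adjusted p = 4.2e-06). In tumor cells, whose mean of 3.60 lay at background, Rps4l was at least 2.66-fold lower than in adult cells (limma adjusted p = 0.00013). Tumor cells were at least 12.1-fold lower than ADM cultures (limma adjusted p = 1.5e-07) and at least 15.7-fold lower than embryonic cells (limma adjusted p = 2.2e-08). These 5 calls held in all 12 alternative fits of each. ADM cultures and embryonic cells were not called different, with a 95% confidence interval of -0.89 to 0.12 for ADM minus embryonic cells.

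Rps4x itself did not follow this pattern. It had signals of 11.02, 11.12 and 11.03 in ADM cultures, 11.26, 11.44 and 11.16 in tumor cells, 11.36, 11.49 and 11.36 in embryonic cells and 11.32, 11.35 and 11.24 in adult cells. Its difference from adult cells had 95% confidence intervals of -0.53 to 0.04 in ADM cultures, -0.30 to 0.27 in tumor cells and -0.18 to 0.38 in embryonic cells. For ADM minus embryonic cells the interval was -0.63 to -0.06, and this difference was not called (limma adjusted p = 0.095). Whether the Rps4l probes also bind other transcripts was not tested. The summed signal of the 8 fibroblast and stellate markers had the same order of groups as Rps4l, at 11.1 to 12.4 on ADM arrays, 6.53 to 6.65 on tumor arrays, 12.6 to 13.2 on embryonic arrays and 9.79 to 9.86 on adult arrays. Of the single markers, 7 were called higher in ADM cultures than in adult cells. Dcn was not, and it was lower in ADM cultures at an unadjusted p under 0.05 in limma's test. Pdgfrb was higher in ADM cultures than in embryonic cells. All 8 were above background in ADM, embryonic and adult cells, and Col1a2, Dcn, Lum, Pdgfra and Postn were at background in tumor cells. The 7 measured immune markers, summed, lay at 9.36 to 10.05 on ADM arrays and 6.75 to 6.94 on tumor arrays. They lay at 9.88 to 10.39 on embryonic arrays and 8.33 to 8.47 on adult arrays, also in the order of Rps4l. Of these 7, 2 were called higher in ADM cultures than in adult cells, and their median change was -0.30. The part of either set of markers in the values of Rps4l was not tested.

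**Figure D2:**
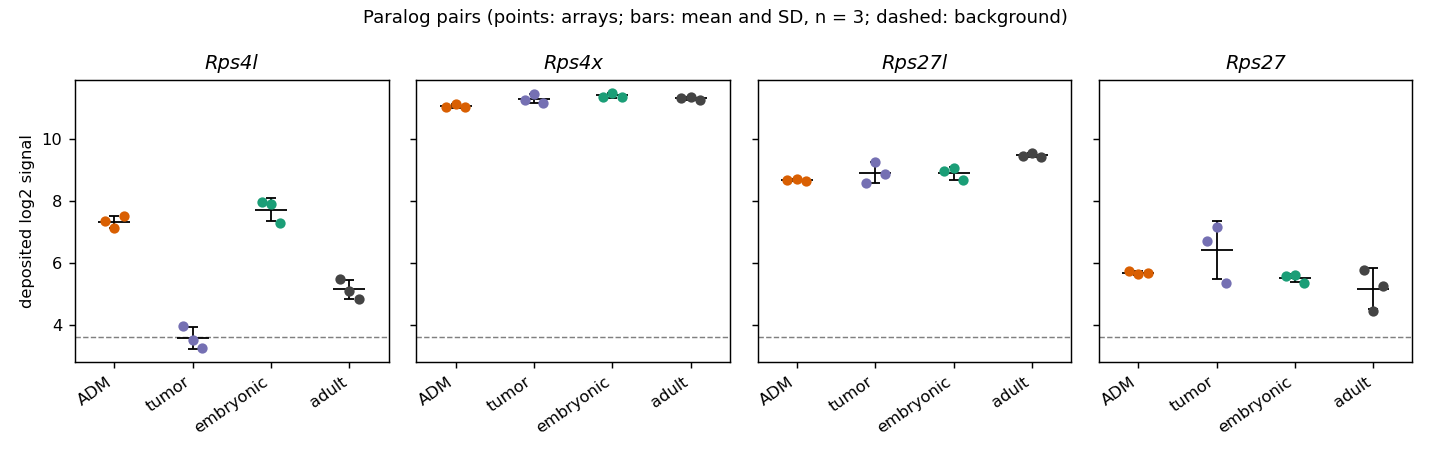
Deposited log2 signal (y axis) of the paralogs Rps4l and Rps4x and of Rps27l and Rps27 in the 4 groups (x axis). Points are arrays, bars are the mean and SD (n = 3), and the dashed line is background. Rps4l is high in ADM and embryonic arrays and at background in tumor arrays while Rps4x stays between 11.02 and 11.49, and Rps27l is highest on the 3 adult arrays.

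Rps27l, a paralog of Rps27 known as a p53-responsive gene, was lower than in adult cells in all 3 other groups. It had signals of 8.69, 8.71 and 8.63 in ADM cultures, 8.59, 9.26 and 8.88 in tumor cells, 8.96, 9.07 and 8.66 in embryonic cells and 9.44, 9.56 and 9.43 in adult cells. All 3 adult arrays lay above all 9 others. Rps27l fell by 0.80 ± 0.18 in ADM cultures (limma adjusted p = 0.0030), by 0.57 ± 0.18 in tumor cells (0.021) and by 0.58 ± 0.18 in embryonic cells (0.025), with the adult arrays shared by the 3 comparisons. The call held in 12, 9 and 9 of 12 alternatives in the 3 comparisons.

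Of the paralogs, Rpl3l, Rpl10l, Rpl39l and Rpl32l had group means at or below background in every group. Rpl10l, for example, lay between 2.38 and 3.15 on all 12 arrays. Rpl32l was called lower in ADM and embryonic cells than in adult cells, but as both sides lay below background no fold is given. Rpl6l, named for its likeness to Rpl6, was bright, with 9.22, 9.35 and 9.22 in ADM cultures, 9.52, 9.71 and 9.35 in tumor cells, 10.03, 10.02 and 9.47 in embryonic cells and 10.16, 10.25 and 10.10 in adult cells. It fell by 0.91 ± 0.17 in ADM cultures (limma adjusted p = 0.00098) and by 0.64 ± 0.17 in tumor cells (0.0088) against adult cells.

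In ADM cultures against adult acinar cells, 12 members fell and 1, Rps4l, rose. Over all genes 15.0% were called lower and 20.9% higher, so the 12 of 64 lower calls are near the background share while the single higher call is below it. The median change was -0.21 over the 64 members and -0.25 over the 41 members over 6. It was -0.11 over all genes and 0.42 over the 5525 genes with a mean over 6. Members were not overlapping and lower in ADM cultures in 35 of 64 cases, against 24.7% of all genes, and not overlapping and higher in 8, against 25.1%. The difference was under 0.5 in size for 52 of the 64 members.

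Rps13, a protein of the small subunit, fell most among the members. It had signals of 10.12, 9.94 and 10.26 in ADM cultures, 10.40, 10.41 and 10.16 in tumor cells, 11.03, 10.88 and 10.82 in embryonic cells and 11.03, 11.15 and 11.02 in adult cells. ADM and tumor arrays overlapped and all lay below the embryonic and adult ones. Rps13 was lower in ADM cultures than in adult cells by a log2 difference of -0.96 ± 0.14, or 1.95-fold (limma adjusted p = 0.00015), and lower in tumor cells by -0.74 ± 0.14, or 1.67-fold (0.00094). Against embryonic cells the difference was -0.80 ± 0.14 in ADM cultures (limma adjusted p = 0.0013) and -0.59 ± 0.14 in tumor cells (0.0074). Its call held in all 12 alternatives in the first 3 of these comparisons and in 11 of 12 in the last.

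Rpl9, of the large subunit, showed the same order of groups. It had signals of 8.17, 8.02 and 7.86 in ADM cultures, 8.28, 8.37 and 7.83 in tumor cells, 8.85, 8.47 and 8.65 in embryonic cells and 9.09, 9.08 and 8.52 in adult cells. The log2 difference from adult cells was -0.88 ± 0.20 in ADM cultures (limma adjusted p = 0.0037) and -0.74 ± 0.20 in tumor cells (0.00999). With the 2 probe sets of Rpl9 averaged, the tumor difference was 0.38, so its direction rests on the probe set used.

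Rps28, a small subunit protein named here after its values were seen, had signals of 11.47, 11.58 and 11.54 in ADM cultures, 11.62, 11.49 and 11.51 in tumor cells, 11.85, 11.82 and 11.74 in embryonic cells and 12.17, 12.15 and 12.17 in adult cells. Every ADM, tumor and embryonic array lay below every adult array. Rps28 fell by 0.63 ± 0.12 in ADM cultures (limma adjusted p = 0.0013), by 0.62 ± 0.12 in tumor cells (0.0012) and by 0.36 ± 0.12 in embryonic cells (0.043), the last call holding in only 2 of 12 alternatives. With its probe sets averaged, the tumor difference turned to 0.26.

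The large subunit protein Rpl3, which lies near the peptidyl transferase centre, and the stalk protein Rplp0 were low in ADM cultures against each of the uncultured groups. Rpl3 had signals of 8.22, 8.59 and 8.31 in ADM cultures, 9.20, 9.43 and 8.92 in tumor cells, 8.97, 9.23 and 8.66 in embryonic cells and 8.92, 8.91 and 8.98 in adult cells. No ADM array overlapped with an array of another group. The log2 difference was -0.56 ± 0.18 against adult cells (limma adjusted p = 0.028) and -0.58 ± 0.18 against embryonic cells (0.042). A second Rpl3 probe set gave means of 8.80 in ADM cultures and 6.65 in adult cells, and the average of all its probe sets gave a difference of 0.52, so the direction for Rpl3 rests on the probe set used. Rplp0 had signals of 9.98, 10.17 and 9.92 in ADM cultures, 10.41, 10.67 and 10.29 in tumor cells, 10.53, 10.72 and 10.36 in embryonic cells and 10.61, 10.58 and 10.33 in adult cells. Its difference was -0.48 ± 0.16 against adult cells (limma adjusted p = 0.031) and -0.51 ± 0.16 against embryonic cells (0.040), with no overlap of arrays in either case. These 2 calls were kept in 7 and 5 of 12 alternatives, and those of Rpl3 in 6 and 7 of 12.

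Rps6, the small subunit protein that S6 kinases phosphorylate, and Rpl38, a large subunit protein known in the mouse for its part in translating Hox messages, fell by less. Rps6 had signals of 11.83, 11.91 and 11.85 in ADM cultures, 11.93, 12.04 and 11.82 in tumor cells, 12.18, 12.17 and 12.06 in embryonic cells and 12.22, 12.21 and 12.24 in adult cells. The log2 difference of Rps6 in ADM cultures was -0.36 ± 0.13 (limma adjusted p = 0.040), and it was called in 3 of 12 alternatives only. Rpl38 was lower in ADM cultures by -0.41 ± 0.13 (limma adjusted p = 0.023) and in tumor cells by -0.43 ± 0.13 (0.016), with the call kept in 8 and 9 of 12 alternatives. The other members called lower in ADM cultures were Rpl7 and Rps29, at -0.47 and -0.39, named after their values were seen, with the call kept in 5 of 12 and 8 of 11 alternatives.

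**Figure D3:**
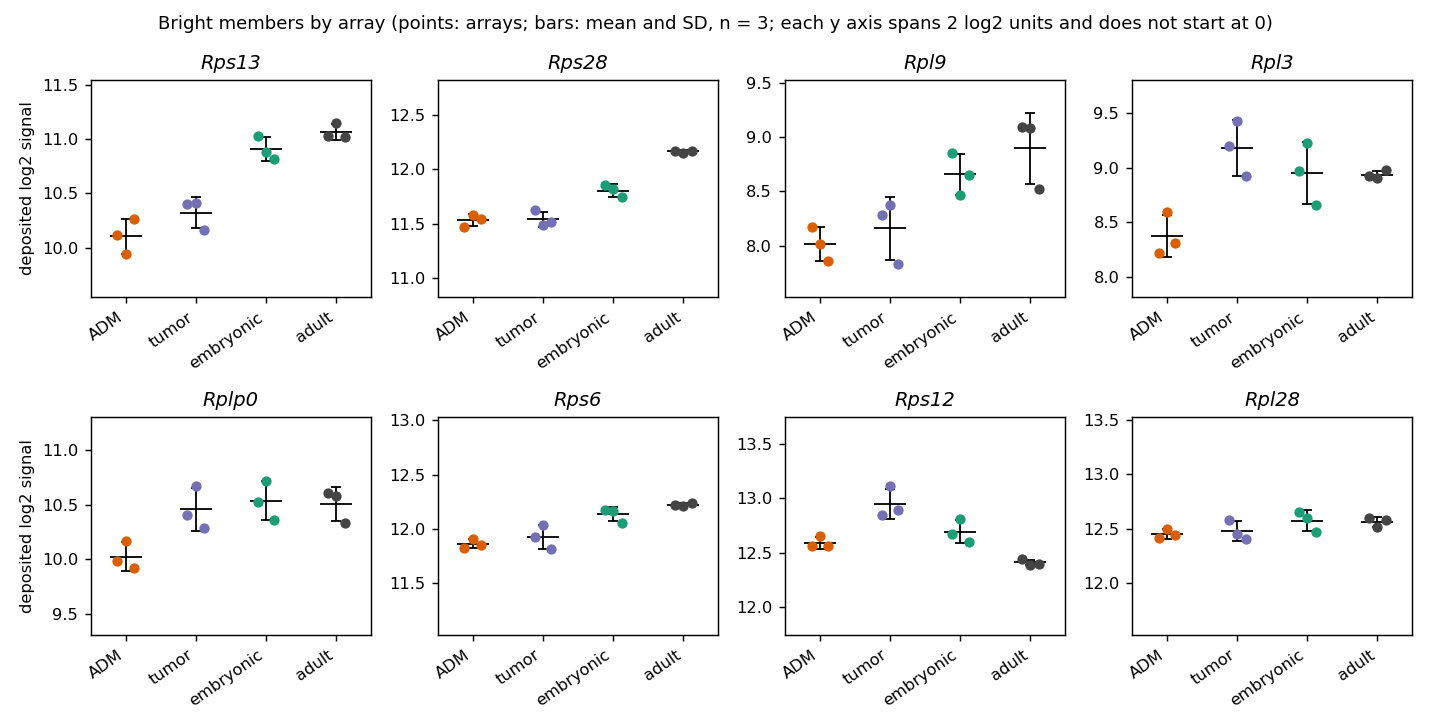
Deposited log2 signal (y axes, each spanning 2 units and not starting at 0) of 8 members in the 4 groups (x axes). Points are arrays and bars are the mean and SD (n = 3). Rps13 is about 10 in ADM and tumor arrays and 11 in embryonic and adult arrays, Rps28 and Rps6 are highest in adult arrays, Rpl3 and Rplp0 are lowest in ADM arrays, Rps12 is highest in tumor arrays and Rpl28 differs little.

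Leaving out single arrays lowered the count of members that fell in ADM cultures to between 6 and 9. It was 6 without ADM replicate 3, 7 without ADM replicate 1 and 7 without adult replicate 2. With the arrays centred on 15 housekeeping genes, whose median was 9.93 in ADM cultures and 9.39 in adult cells, the median change of all genes became -0.65 and 48 of 64 members were called lower.

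In tumor cells against adult acinar cells, 11 members rose and 9 fell, against 22.1% and 15.2% of all genes. The median change was 0.03 over the 64 members, -0.09 over all genes and 0.50 over the genes with a mean over 6. The 41 members over 6 had a median of -0.01, with 4 (9.8%) called higher and 7 (17.1%) lower. Of the 5525 genes with a mean over 6, 49.2% were called higher and 19.6% lower. The 23 members under 6 had a median of 0.43, with 7 called higher and 2 lower. Without tumor replicate 2 the counts of all members were 5 higher and 8 lower. Without adult replicate 3 the number called higher was 7, and without tumor replicate 3 the number called lower was 5.

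Rps12, a small subunit protein, was the bright member with the largest call upwards. It had signals of 12.56, 12.65 and 12.56 in ADM cultures, 12.85, 13.11 and 12.89 in tumor cells, 12.67, 12.81 and 12.60 in embryonic cells and 12.44, 12.39 and 12.40 in adult cells. Every tumor array lay above every array of the other groups, and every adult array below. The log2 difference between tumor and adult cells was 0.54 ± 0.13, or 1.45-fold (limma adjusted p = 0.0054), and 6 of the probe sets for Rps12 held identical values. Rps3, Rps10 and Rpl27, named after their values were seen, were higher in tumor cells than in adult cells by 0.53, 0.44 and 0.35. The call for Rps3 held in 11 of 12 alternatives, while Rps10 turned to -0.044 and -0.032 under quantile and cyclic loess scaling and Rpl27 to -0.03 under housekeeping centring.

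The other members that rose in tumor cells had dim probe sets. Rpl6, of the large subunit, had signals of 4.69, 5.01 and 4.97 in ADM cultures, 4.93, 6.84 and 5.54 in tumor cells, 5.11, 5.21 and 4.91 in embryonic cells and 4.63, 4.69 and 4.0 in adult cells. The log2 difference of Rpl6 between tumor and adult cells was 1.33 ± 0.36 (limma adjusted p = 0.011) and 0.80, still called, without tumor replicate 2, which alone lay above every array of the other groups by more than 1. Rpl11, which with Rpl5 carries the smallest large-subunit ribosomal RNA and binds Mdm2, had signals of 4.12, 4.10 and 4.27 in ADM cultures, 4.18, 5.61 and 4.39 in tumor cells, 4.24, 3.95 and 4.13 in embryonic cells and 3.23, 3.69 and 4.01 in adult cells. Its tumor arrays lay above the adult ones, with replicate 2 far from the other two, and the difference was 1.08 ± 0.31 (limma adjusted p = 0.013) and 0.64, still called, without replicate 2. Rpl17, Rps27, Rpl26 and Rpl22 were also called higher in tumor cells, by 1.18, 1.24, 0.82 and 0.43. Rplp2, a stalk protein whose adult mean lay below background, was at least 1.26-fold higher (limma adjusted p = 0.048). Without tumor replicate 2 the calls of Rps27 (0.87), Rpl26 (0.63), Rps10 (0.38), Rpl22 (0.38), Rpl27 (0.31) and Rplp2 were lost, as was that of Rps24 (-0.40), which is described below. Over all alternatives the call was kept in 11 of 11 for Rpl17, 10 of 11 for Rpl6, 9 of 11 for Rpl11, 7 of 12 for Rps27, 5 of 12 for Rpl26, 5 of 11 for Rplp2 and 5 of 11 for Rpl22, with Rpl22 at -0.0093 and -0.043 under quantile and cyclic loess scaling. Tumor and adult arrays overlapped for Rps27, Rpl26 and Rplp2. Rpl5 had 4.52, 6.14 and 6.23 in tumor cells against 5.30, 5.46 and 4.63 in adult cells and was not called.

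For 5 of these 23 dim members, another probe set that carries the member's symbol together with further symbols had a mean over 10. For Rpl26 the probe set used had a mean of 5.78 and the other 12.01, and for Rps27 they had 5.70 and 12.29. On the brighter probe set the means in tumor cells were 12.31 for Rpl26, against 11.95 in adult cells, and 12.23 for Rps27, against 12.24 in adult cells. Of the other 3, Rpl30 had 12.09 in tumor cells and 12.29 in adult cells, Rpl27a 11.54 in tumor cells and 11.57 in adult cells, and Rps16 12.07 in tumor cells and 12.05 in adult cells. Over all 60 ribosomal protein probe sets with a mean under 6, the median difference between tumor and adult cells was 0.49, and 18 were called higher and 3 lower. Over the 101 probe sets of 6 or more it was 0.02, with 14 higher and 15 lower. Of all 12040 probe sets between background and 6, 19.99% were called higher in tumor cells, with a median of -0.02, and 12.5% were highest on tumor replicate 2, against 34 of the 60. What these dim probe sets bind was not tested.

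The members that fell in tumor cells were Rps4l, Rps13, Rpl9, Rpl6l, Rps28, Rps27l and Rpl38, described above, and Rps29 and Rps24, named after their values were seen. Rps29 was lower by -0.44 ± 0.12 (limma adjusted p = 0.012) in tumor cells and kept its call in all 11 alternatives. Rps24 was lower by -0.38 ± 0.14 (limma adjusted p = 0.0496) and kept its call in 4 of 12, and with its probe sets averaged its difference turned to 0.27.

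Embryonic and adult acinar cells differed little in these genes. 1 member rose, Rps4l, and 3 fell, Rps27l, Rps28 and Rpl32l, against 17.6% of all genes called higher and 11.8% called lower. The median change was 0.01 over the 64 members, -0.09 over all genes and 0.22 over the genes with a mean over 6. The lower calls numbered 0 without embryonic replicate 1 or 3 or without adult replicate 2, and to 1 without embryonic replicate 2. Rps19, the small subunit protein mutated in many people with Diamond-Blackfan anaemia, had 11.75, 11.80 and 11.62 in embryonic cells against 11.55, 11.51 and 11.39 in adult cells. Its arrays did not overlap, but its difference of 0.24 ± 0.13 was not called (limma adjusted p = 0.18). Rpsa, also known as the laminin receptor precursor, had a 95% confidence interval of -0.29 to 0.27.

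**Figure D4:**
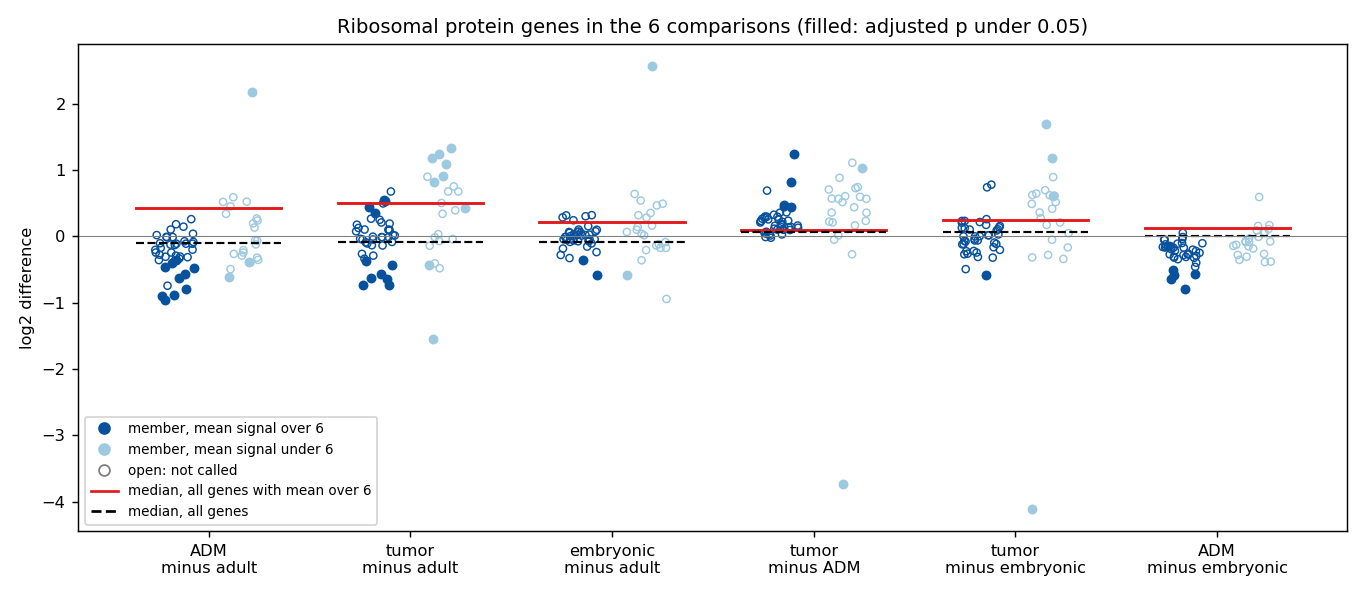
Log2 difference (y axis) of every member in the 6 comparisons (x axis), with dark points for members over 6, light points for members under 6 and filled points for an adjusted p under 0.05. The dashed and red lines are the medians of all genes and of all genes over 6. Dark points lie mostly below 0 for ADM against adult or embryonic cells, above 0 for 39 of the 41 members in tumor against ADM cells, and around 0 in the rest. Light points spread above 0 wherever tumor cells are compared, and Rps4l is the extreme light point.

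Tumor cells and ADM cultures were both grown in culture, and set against each other they gave 5 members higher in tumor cells and 1 lower, against 7.41% and 7.94% of all genes. The median change was 0.23 over the members and 0.06 over all genes. It was 0.21 over the 41 members over 6 and 0.09 over the 5525 genes with a mean over 6. Rpl34, of the large subunit, had 8.20, 9.50 and 9.50 in tumor cells against 7.91, 7.84 and 7.73 in ADM cultures. All tumor arrays lay above the ADM ones, with replicate 1 apart from the others, and the difference was 1.24 ± 0.31 (limma adjusted p = 0.015). A brighter probe set, shared by Rpl34 and its pseudogene Rpl34-ps1, had means of 12.47 in tumor cells and 12.29 in ADM cultures. The size of the Rpl34 difference thus rests on the probe set used. Rpl26 and Rpl3 were higher in tumor cells by 1.03 and 0.81, and Rpl32 and Rpl8, named after their values were seen, by 0.47 and 0.43. Without tumor replicate 2 the calls of Rpl34 (1.02), Rpl26 (0.84), Rpl32 (0.41) and Rpl8 (0.39) were lost, and that of Rpl3 was kept. Over all alternatives the Rpl3 call was kept in 11 of 12, with a lowest difference of 0.35 and a highest limma adjusted p of 0.40. A brighter probe set that Rpl26 shares with another symbol had means of 12.31 in tumor cells and 11.80 in ADM cultures. The number called higher depended on single arrays, at 13 without tumor replicate 1, 1 without tumor replicate 2, 3 without tumor replicate 3, 3 without ADM replicate 1, 2 without ADM replicate 2 and 1 without ADM replicate 3.

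Tumor cells against embryonic acinar cells gave 3 members higher, Rps16, Rpl26 and Rpl37, and 2 lower, Rps4l and Rps13, against 14.2% and 12.3% of all genes. The median change was 0.04 over the members and 0.07 over all genes. It was -0.003 over the 41 members over 6 and 0.24 over the 5525 genes with a mean over 6. Rps16, of the small subunit, had 4.52, 4.96 and 5.31 in tumor cells against 3.83, 3.32 and 2.55 in embryonic cells. The groups did not overlap, and as the embryonic mean lay below background the rise is given as at least 2.36-fold (limma adjusted p = 0.0061). On the probe set shared with its pseudogenes, Rps16 had means of 12.07 in tumor cells and 12.15 in embryonic cells. Without tumor replicate 1, 13 members were called higher, and without tumor replicate 2 the call of Rpl37 was lost, at 0.50.

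ADM cultures against embryonic acinar cells gave 0 members higher in limma's test (also 0 at an unadjusted p under 0.05) and 5 lower, Rps13, Rpl9, Rpl3, Rpl6l and Rplp0, against 9.13% and 8.44% of all genes. The median change was -0.17 over the members and below 0.01 in size over all genes. It was -0.22 over the 41 members over 6 and 0.13 over the 5525 genes with a mean over 6. The lower calls numbered 1 without ADM replicate 1 or 3 or embryonic replicate 1, and 2 without ADM replicate 2 or embryonic replicate 2.

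Most genes that build ribosomes were higher in tumor cells than in adult cells. Of 43 measured genes of ribosome assembly and ribosomal RNA processing, 35 rose and 0 fell in tumor cells against adult cells, with a median of 1.12. For this and the following lists, the shares of all genes called against adult cells were 20.9% higher and 15.0% lower in ADM cultures, 22.1% and 15.2% in tumor cells, and 17.6% and 11.8% in embryonic cells. In ADM cultures 18 rose and 1 fell, and in embryonic cells 6 rose and 0 fell. At an unadjusted p under 0.05 in limma's test, 1 was lower in tumor cells and 2 in embryonic cells. Nop2, a methyltransferase of the large ribosomal RNA, had 7.15, 7.25 and 7.08 in ADM cultures, 7.88, 9.13 and 9.02 in tumor cells, 6.63, 6.52 and 6.24 in embryonic cells and 6.44, 5.90 and 5.85 in adult cells. Its groups did not overlap except for the embryonic and adult arrays, and tumor cells exceeded adult cells by 2.61 ± 0.28 (limma adjusted p = 6.4e-06). Utp20, of the small subunit processome, rose by 2.46 ± 0.16 and Nip7, of the early large subunit, by 2.00 ± 0.25 in the same comparison. Eif6, which keeps the large subunit from joining too early, rose by 1.45 ± 0.24 in ADM cultures against adult cells (limma adjusted p = 0.00032). In tumor cells against embryonic cells 31 of the 43 genes rose and 0 fell, also 0 at an unadjusted p under 0.05 there and against ADM cultures. In tumor cells against ADM cultures 20 rose and 0 fell, with 33, 7 and 8 higher without tumor replicate 1, 2 and 3, and 11 and 9 without ADM replicate 1 and 3. The 6 of embryonic cells became 2 without embryonic replicate 2 and 3 without adult replicate 2, while the count of tumor against adult cells stayed between 31 and 40.

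RNA polymerase I, which transcribes the ribosomal RNA genes, gave 8 of 15 genes higher and 0 lower in ADM cultures, 11 and 0 in tumor cells, and 5 and 0 in embryonic cells, each against adult cells. At an unadjusted p under 0.05 in limma's test, 1, 0 and 1 were lower in the same order. The 8 became 5 without ADM replicate 1 and 4 without ADM replicate 2 or 3 or adult replicate 2 or 3, and the 5 became 3 without embryonic replicate 1 or adult replicate 2. Its catalytic subunit Polr1a had 6.95, 7.12 and 6.96 in ADM cultures, 7.90, 8.05 and 8.46 in tumor cells, 6.74, 7.12 and 6.54 in embryonic cells and 6.70, 6.13 and 6.51 in adult cells. Tumor arrays lay above all others for Polr1a, and the difference from adult cells was 1.69 ± 0.20 (limma adjusted p = 1.7e-05). Taf1d, of the promoter selectivity factor, rose by 1.75 ± 0.20, 1.80 ± 0.20 and 1.71 ± 0.20 in ADM cultures, tumor cells and embryonic cells against adult cells.

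Ribosomal proteins of mitochondria serve a separate ribosome inside that organelle. Of 71 such genes, 34 rose and 2 fell in tumor cells against adult cells, against 22.1% and 15.2% of all genes, with a median of 0.46. Against ADM cultures 29 rose and 0 fell, with 46 and 16 higher without tumor replicate 1 and 2, 19 without ADM replicate 1 and 17 without ADM replicate 2 or 3. Against embryonic cells 30 rose and 0 fell (0 lower at an unadjusted p under 0.05 in both comparisons), with 19 higher without tumor replicate 2 or embryonic replicate 3. In ADM cultures against adult cells 10 rose and 17 fell, with 10 lower without ADM replicate 3, and in embryonic cells 9 rose and 3 fell. Mrps25, of the mitochondrial small subunit, had 8.26, 8.49 and 8.40 in ADM cultures, 8.46, 9.26 and 9.41 in tumor cells, 7.87, 7.78 and 7.87 in embryonic cells and 6.74, 6.68 and 6.75 in adult cells. Embryonic arrays lay above the adult ones and ADM and tumor arrays above both, and tumor cells exceeded adult cells by 2.32 ± 0.21 (limma adjusted p = 1.1e-06). The difference between the gene lists was not tested.

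**Figure D5:**
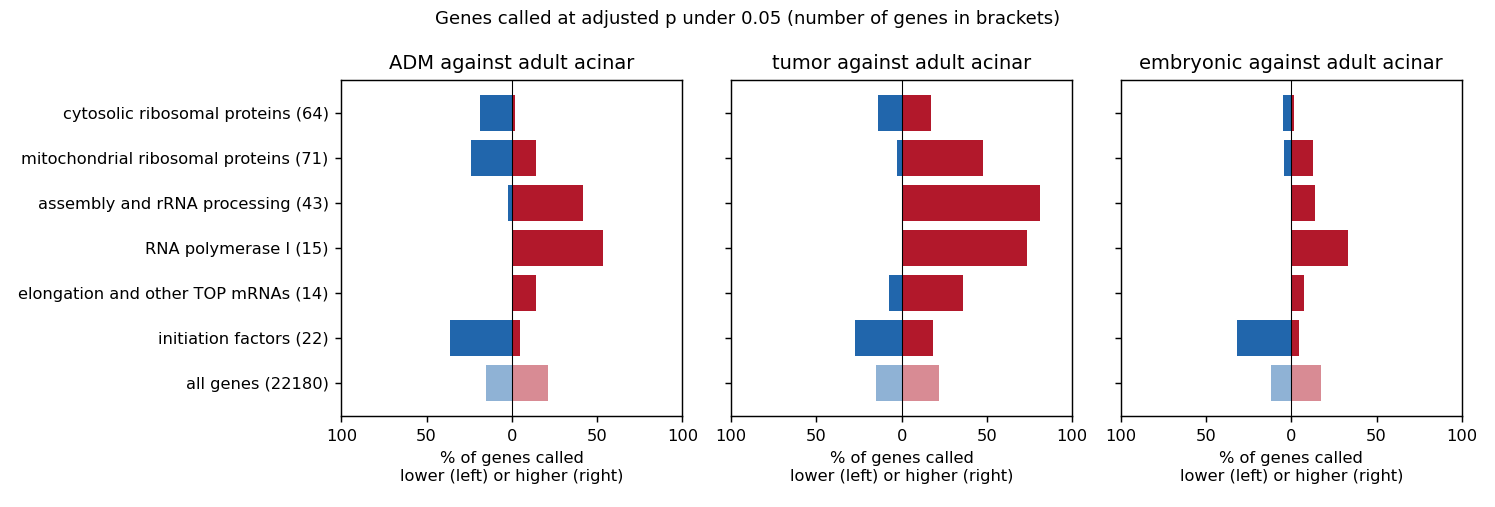
Percent of genes called higher (right, red) or lower (left, blue) than in adult acinar cells (x axes) in ADM cultures, tumor cells and embryonic cells, for the cytosolic ribosomal proteins and 5 related gene lists (rows, with the number of genes). The faint bars are all genes. Assembly and RNA polymerase I genes are called higher most often in tumor cells, where cytosolic ribosomal proteins are called in both directions at about the rate of all genes.

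Of 14 measured elongation factors and other messages with a TOP motif, 2 rose in ADM cultures, 5 rose and 1 fell in tumor cells, and 1 rose in embryonic cells against adult cells. The 5 became 3 without tumor replicate 2 or adult replicate 3. Nap1l1, a histone chaperone with a TOP message, rose by 1.02 ± 0.15, 1.67 ± 0.15 and 1.06 ± 0.15 in ADM cultures, tumor cells and embryonic cells. Of 22 initiation factors, 1 rose and 8 fell in ADM cultures, 4 rose and 6 fell in tumor cells, and 1 rose and 7 fell in embryonic cells against adult cells. The 8 that fell in ADM cultures became 3 to 5 without any 1 of the ADM replicates or without adult replicate 1 or 3. The 4 that rose in tumor cells became 2 without tumor replicate 2 or adult replicate 2, and the 7 of embryonic cells became 4 without embryonic replicate 1. Eif4a2, an RNA helicase of the cap-binding complex, had 9.85, 9.49 and 9.60 in ADM cultures, 9.50, 9.41 and 9.22 in tumor cells, 10.42, 10.09 and 10.13 in embryonic cells and 10.62, 10.23 and 10.65 in adult cells. ADM and tumor arrays lay below all embryonic and adult arrays, and the difference from adult cells was -0.85 ± 0.17 in ADM cultures and -1.12 ± 0.17 in tumor cells (limma adjusted p = 0.0014 and 0.00013).

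Of 21 regulators of ribosomal protein output, 3 rose and 6 fell in ADM cultures, 5 rose and 9 fell in tumor cells and 1 rose and 7 fell in embryonic cells against adult cells, the 1 becoming 3 without adult replicate 1. Larp1 had 8.72, 9.14 and 8.74 in ADM cultures, 8.87, 9.03 and 9.55 in tumor cells, 9.14, 9.68 and 9.43 in embryonic cells and 10.67, 10.70 and 10.66 in adult cells. All adult arrays of Larp1 lay above all others, and it fell by 1.81 ± 0.20 in ADM cultures (limma adjusted p = 1.3e-05) and by 1.26 ± 0.20 in embryonic cells (0.00041). Deptor, an inhibitor of mTOR, had 6.70, 6.92 and 6.37 in ADM cultures, 6.42, 5.34 and 5.80 in tumor cells, 7.03, 7.64 and 7.40 in embryonic cells and 9.22, 9.38 and 9.39 in adult cells. Adult arrays were again highest, and Deptor fell by 2.67 ± 0.25, 3.48 ± 0.25 and 1.97 ± 0.25 in ADM cultures, tumor cells and embryonic cells against adult cells. Myc, a transcription factor that drives ribosome production, had 8.66, 8.85 and 8.69 in ADM cultures, 8.90, 8.96 and 9.18 in tumor cells, 7.89, 7.69 and 7.32 in embryonic cells and 8.18, 7.96 and 7.99 in adult cells. Tumor and ADM arrays lay above embryonic and adult ones, and Myc exceeded embryonic cells by 1.38 ± 0.17 in tumor cells (limma adjusted p = 2.9e-05) and by 1.10 ± 0.17 in ADM cultures (0.00034).

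The proliferation genes shifted in all 3 comparisons with adult cells, as all 11 measured rose in ADM, tumor and embryonic cells against adult cells. Cdk1, the mitotic kinase, exceeded adult cells by 4.29 ± 0.36, 6.09 ± 0.36 and 4.83 ± 0.36 in ADM cultures, tumor cells and embryonic cells. The part of proliferation in the results for ribosomal proteins was not tested.

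The counts of these lists against adult cells moved with the scaling of the arrays. Of the assembly genes, 28, 27 and 27 were higher and 1 lower in tumor cells under quantile, cyclic loess and housekeeping scaling. In ADM cultures 7, 8 and 4 of them were higher and 1, 1 and 6 lower, and in embryonic cells 1, 1 and 0 were higher and 4, 4 and 12 lower. Of the RNA polymerase I genes, 9 were higher and 0 lower in tumor cells under each scaling. In ADM cultures 3 were higher under each and 1, 2 and 3 lower, and in embryonic cells 3, 3 and 1 were higher and 0, 1 and 3 lower. Of the mitochondrial genes, 18, 15 and 16 were higher and 10, 11 and 13 lower in tumor cells. In ADM cultures 4 were higher under each and 28, 28 and 43 lower, and in embryonic cells 5, 4 and 3 were higher and 13, 12 and 39 lower. Under housekeeping centring, 11 of the 14 elongation and TOP genes were lower in ADM cultures and 10 in embryonic cells, and in tumor cells 2 were higher and 3 lower. Of the initiation factors, 17 were then lower in ADM cultures, 10 in tumor cells and 20 in embryonic cells. Of the regulators 11, 10 and 14 were lower in the same order.

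Of the subunits outside the symbol rule, Fau, which encodes a small subunit protein as a fusion, Rps3a1, Rpl22l1 and Rpl7l1 were measured. Rps3a1 had 10.32, 10.46 and 10.41 in ADM cultures, 10.57, 10.60 and 10.40 in tumor cells, 11.11, 11.02 and 10.72 in embryonic cells and 11.26, 11.24 and 11.15 in adult cells, the same order of groups as Rps13. It was called lower in 4 comparisons, ADM and tumor cells each against adult and embryonic cells. Fau lay between 11.75 and 12.01 on all 12 arrays.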

How the data were processed

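Total RNA had been extracted with a column kit, labelled with biotin and hybridised to Affymetrix arrays, per the labels' protocols. The authors deposited 1 processed log2 signal per probe set and array, and their software and normalization are not given in the sources used here. Base 2 was inferred from the range of the values. No further scaling was applied. Of 41345 probe sets, 23521 carried 1 gene symbol in the platform annotation, 1814 several and 16010 none, and 23328 of the first kind were matched by gene identifier with no symbol changed. A gene was represented by its brightest probe set (mean of 12 arrays), which chose among 2 or more for 24 of the 64 members (104 probe sets). 1 model of group means without a block was fitted to the 12 arrays with limma 3.58.1 in R 4.3.3 (8 residual and 5.02 prior degrees of freedom), and p-values were two-sided and Benjamini-Hochberg adjusted over 22180 genes. Values after ± are standard errors of that fit unless marked SD, and they use a spread pooled over all 4 groups. The fit was tested on simulated data with 200 changed genes.

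The members, gene lists and tests were chosen with earlier results of these data known, and the background level and the split of members at 6 were chosen after seeing the data. Where the dimmer group's mean lay at or below background, a fold is given as "at least", against the mean of that group with each array raised to the background level where it lay under it. Named members were a fixed set of 22 symbols with known roles, the 4 highest and 4 lowest changes per comparison, the widest and narrowest ranges of group means, and the brightest and dimmest members. Named genes of other lists were up to 3 per list and comparison by absolute change. Alternatives were quantile, cyclic loess and housekeeping scaling, the mean of a gene's probe sets, only genes with a group mean over 6, a replicate block, 3 symbols with a trailing digit as members, and leaving out each array. With 3 arrays a group, their number limits precision.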

Additional observations from a re-analysis of the deposited data

Results flagged for a closer look

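The following signals lie outside the member probe sets. 13 ribosomal protein symbols occurred only on probe sets that carry further symbols, so their signal could not be given to 1 gene. Each had a mean over the 12 arrays above the background of 3.62. For Rps15a, however, the group means of 3.35 in embryonic cells and 3.59 in adult cells lay below background. The means over the 12 arrays were 11.6 for Rpl10, 11.9 for Rpl12, 11.7 for Rpl23, 12.5 for Rpl31, 12.2 for Rpl35a, 12.2 for Rpl36 and 12.2 for Rps21. They were 8.61 for Rpl13a, whose probe set also names the small nucleolar RNA gene Snord32a, 9.02 for the probe set shared by Rpl36a and Rpl36al, 6.84 for Rpl24, 5.53 for Rps2 and 3.67 for Rps15a. On the Rpl13a probe set the group means were 8.93 in ADM cultures, 7.25 in tumor cells, 8.12 in embryonic cells and 10.14 in adult cells, and on the Rpl10 probe set 11.26, 11.36, 11.76 and 11.98 in the same order. What these values owe to each symbol was not tested.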

How the results depend on the processing

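The direction of the median change of the members and the counts of calls were recomputed under each alternative, and a replicate block and the wider member rule moved none of these 18 results beyond 1.5 times (counts) or the spread between arrays (medians). Correlations of deviations ran from -0.10 to 0.21 over 18 pairs of same-numbered arrays and from -0.19 to 0.25 over 36 pairs of differently numbered arrays. With 3 arrays a group these values cannot show whether the samples were paired. With the block, 5 of the members' calls were lost, those of Rps6 in ADM cultures, Rpl27 and Rps24 in tumor cells and Rps28 in embryonic cells against adult cells, and of Rpl8 in tumor cells against ADM cultures. Under housekeeping centring the members' medians became -0.74 (ADM against adult), -0.36 (tumor against adult), -0.51 (embryonic against adult) and 0.39 (tumor against ADM). The lower calls became 48, 29 and 46 against adult cells and 1 for tumor against embryonic cells. The higher calls became 3 for tumor against adult, 14 for tumor against ADM and 6 for tumor against embryonic cells. That scaling moved the median of all genes to -0.65, -0.47 and -0.61 in ADM, tumor and embryonic against adult cells, and the share of calls that are higher to 15.9%, 24.4% and 13.3%, from 58.2%, 59.3% and 59.8%. It moved that share to 63.5% and 64.7% for tumor against ADM and embryonic cells, from 48.3% and 53.7%. Under quantile scaling the median was -0.10 (ADM against adult) and 0.20 (tumor against adult), and the higher calls were 4 (ADM against adult), 2 (embryonic against adult) and 6 (tumor against embryonic). Under cyclic loess the median for ADM against adult was -0.13, the higher calls were 2 (ADM against adult) and 2 (embryonic against adult), and 4 were lower in tumor against embryonic cells. With probe sets averaged, the medians were -0.17 (ADM against adult) and 0.17 (tumor against adult), and 2 members were lower in ADM against embryonic cells. With only genes whose group mean passed 6, 7 were higher in tumor and 2 in embryonic against adult cells, counts that include members kept through the group where they are high. In that fit 73.5%, 69.7% and 72.5% of calls were higher in ADM, tumor and embryonic against adult cells. Leaving out single arrays gave medians of -0.23 to -0.15 (ADM against adult), 0.01 to 0.10 (tumor against adult), -0.04 to 0.06 (embryonic against adult), 0.17 to 0.27 (tumor against ADM), -0.01 to 0.08 (tumor against embryonic) and -0.23 to -0.15 (ADM against embryonic). Lower calls ranged from 6 to 9, 5 to 10, 0 to 2, 1 to 1, 2 to 3 and 1 to 4 in the same order, and higher calls from 1 to 1, 5 to 15, 1 to 1, 1 to 13, 2 to 13 and 0 to 0. Of the members' called differences, 9 values turned sign. With probe sets averaged these were Rpl3 in ADM (0.52) and Rpl9 (0.38), Rps24 (0.27) and Rps28 (0.26) in tumor cells against adult cells. Under quantile and cyclic loess scaling they were Rpl22 (-0.0093 and -0.043) and Rps10 (-0.044 and -0.032), and under housekeeping centring Rpl27 (-0.03), all in tumor against adult cells. A further 158 values lost their call and 458 kept it. Apart from averaging probe sets, filtering genes and leaving out arrays, whose construction changes the data entering the fit, the cause of these moves was not tested. The dimmest probe sets lie near background, which limits what their differences show.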
